A study of Mus musculus with 12 samples.

Results

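The Myc network is described here through 9 genes: the family members Myc and Mycn, their obligate partner Max, and the other proteins that pair with Max, namely Mxd1, Mxi1, Mxd3, Mxd4, Mnt and Mga. They were taken by gene symbol from the deposited expression table, which holds 23420 genes, and all 9 symbols were found. The 12 libraries come from mouse fetal liver cells without lineage markers that carry c-Kit, sorted in tubes of 100 cells by the paired immunoglobulin-like receptor PIR. There are 3 libraries in each of 4 groups, named in the titles: PIR+ KO, PIR+ wt, PIR- KO and PIR- wt. By the source names, fetal livers of E12.5 and E14.5 are mixed within every group: E14.5 for replicates 1 and 2 and E12.5 for replicate 3 of PIR+ KO, E12.5 for replicates 1 and 2 and E14.5 for replicate 3 of PIR+ wt, E12.5 for replicate 1 and E14.5 for replicates 2 and 3 of PIR- KO, and E14.5 for replicate 1 and E12.5 for replicates 2 and 3 of PIR- wt. The labels do not name the gene that is knocked out, the mouse strain or the animals behind each tube. The targeted gene was therefore not checked, and p-values here cover variation from tube to tube, which may be technical. On the values as deposited, the test draws the spread largely from genes of like level, not from the gene's own tubes. Very small p-values rest on that borrowed spread and are no measure of a gene's own replicate variation.

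MYC and MYCN are transcription factors that cannot bind DNA alone. Each forms a pair with MAX, and the pair binds the E-box sequence CACGTG and raises transcription of genes for ribosome building, metabolism and cell growth. The MXD proteins, MNT and MGA compete for the same partner: with MAX they sit on the same sequence and recruit corepressors. In blood formation, MYC and MYCN act together in stem and progenitor cells, and MYC is required again as lymphoid precursors divide.

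The label fields differ among themselves. The title and genotype fields give the same PIR sign in all 12 libraries, while the markers field gives the opposite sign in 6 of them, and the embryonic day in the source name goes with the markers field in all 12. The titles were used. In the markers field PIR+ always goes with E12.5 and PIR- with E14.5, so the day labels are as doubtful as that field. If the days follow the sort and not the source names, age and PIR sign cannot be told apart. The check with embryonic day as a covariate uses the days as labelled. Lilrb3, which encodes PIR-B, was 6.2 to 14.3 in the 6 PIR+ libraries and listed at 0 in the 6 PIR- libraries. Kit was 34.2 to 56.3 in PIR+ and 18.6 to 34.5 in PIR- libraries. The markers field gives IL7Ra as positive throughout and the series title calls the PIR- subset IL7R-; Il7r was 9.7 to 20.3 in PIR+ and 16.1 to 24.4 in PIR- libraries. Values are normalized molecule counts as deposited, and 1 molecule is estimated to correspond to a value of 0.49 to 0.775, depending on the library. The libraries hold an estimated 208195 to 442533 molecules each.

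The median of all 4542 tested genes was 0.51 higher in PIR+ than in PIR- wt libraries on the log2 scale, and 0.39 higher in the KO libraries. Fold changes are on the deposited scale unless a value is said to be after median-of-ratios scaling, which brings the median gene to 0.02 and 0.01.

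The promoter of Mycn is shown first because Mycn carries the largest difference in the network. Its window holds 3 matches to TTTNGCGC, an E2F-type motif searched on both strands, in the 250 bases before to 50 bases after the RefSeq start. The first and second matches overlap on opposite strands, and the capitals mark all 3. The stretch is chr12:12941977-12942039 on the minus strand of GRCm38.p6, between 203 and 141 bases before the start.
Mycn: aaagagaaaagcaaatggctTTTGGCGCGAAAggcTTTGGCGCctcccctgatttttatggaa
Of 32851 promoter windows of the same length, 1.38% hold this motif and 0.0426% hold it more than once. The Mycn window holds no CACGTG, the sequence that the network itself binds.

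The repressor partners Mnt and Mxd4 each have 1 CACGTG in the same window, shown in capitals, on chr11:74830781-74830826 (plus strand) and chr5:34187904-34187949 (minus strand).
Mnt: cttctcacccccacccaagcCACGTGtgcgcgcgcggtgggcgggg
Mxd4: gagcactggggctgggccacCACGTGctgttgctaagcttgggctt
Max has 1 as well, lying across its start. Over all windows 7.15% hold CACGTG, counted on both strands. Promoters of 8 of the 9 members matched in the RefSeq table, Mxi1 with 3 starts, and no other match to either motif was found in them. The member without a promoter there is Myc, so Myc was not searched and Mycn cannot be compared with it. A match describes letters only.

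Mycn separated the sorted subsets, and Myc did not. Mycn (chromosome 12, 12936093 to 12941914, minus strand, GRCm38) was 37.6, 30.4 and 41.8 in PIR+ KO libraries and 33, 27.6 and 35.9 in PIR+ wt libraries. It was 1.1, 2.9 and 2.2 in PIR- KO libraries, and 0, 2.3 and 2.3 in PIR- wt libraries. Every PIR+ library lay above every PIR- library, with no value between 2.9 and 27.6. Of the 4542 tested genes, 17.7% were higher in PIR+ libraries without overlap. In estimated molecules this is 42 to 62 per PIR+ library against 0 to 5 per PIR- library. The log2 fold change, PIR+ over PIR-, was 3.90 ± 0.35 in wt (SE, limma adjusted p = 2.35e-17) and 3.65 ± 0.35 in KO (adjusted p = 1.45e-15). After scaling it was 3.58 in wt and 3.30 in KO, and it was called under every alternative run. The authors' deposited table gives a DESeq2 p-value of 8.85e-11 for Mycn between the wt subsets. Mycn passed the filter on low values through the PIR+ libraries alone, so a difference between the subsets was built into its being tested. In tubes of pooled cells, fewer cells with a message and less message per cell cannot be told apart.

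Myc (chromosome 15, 61985391 to 61990374, plus strand) was present in every library at a value of 30.7 or more. It was 42.4, 51.9 and 55.5 in PIR+ KO libraries and 41.2, 39.5 and 46.8 in PIR+ wt libraries. In PIR- libraries it was 42.9, 42.7 and 61.7 in KO and 30.7, 36.4 and 32.6 in wt. The lowest PIR+ wt library lay above the highest PIR- wt library, which was so for 47.6% of tested genes, while the KO subsets overlapped. The log2 fold change, PIR+ over PIR-, was 0.35 ± 0.21 in wt (SE, limma adjusted p = 0.170) and 0.04 ± 0.21 in KO (adjusted p = 0.909). Both are below the shift of the median gene. After scaling the sign turned, to -0.16 in wt (adjusted p = 0.493) and -0.36 in KO (adjusted p = 0.102), and neither passed.

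**Figure D1:**
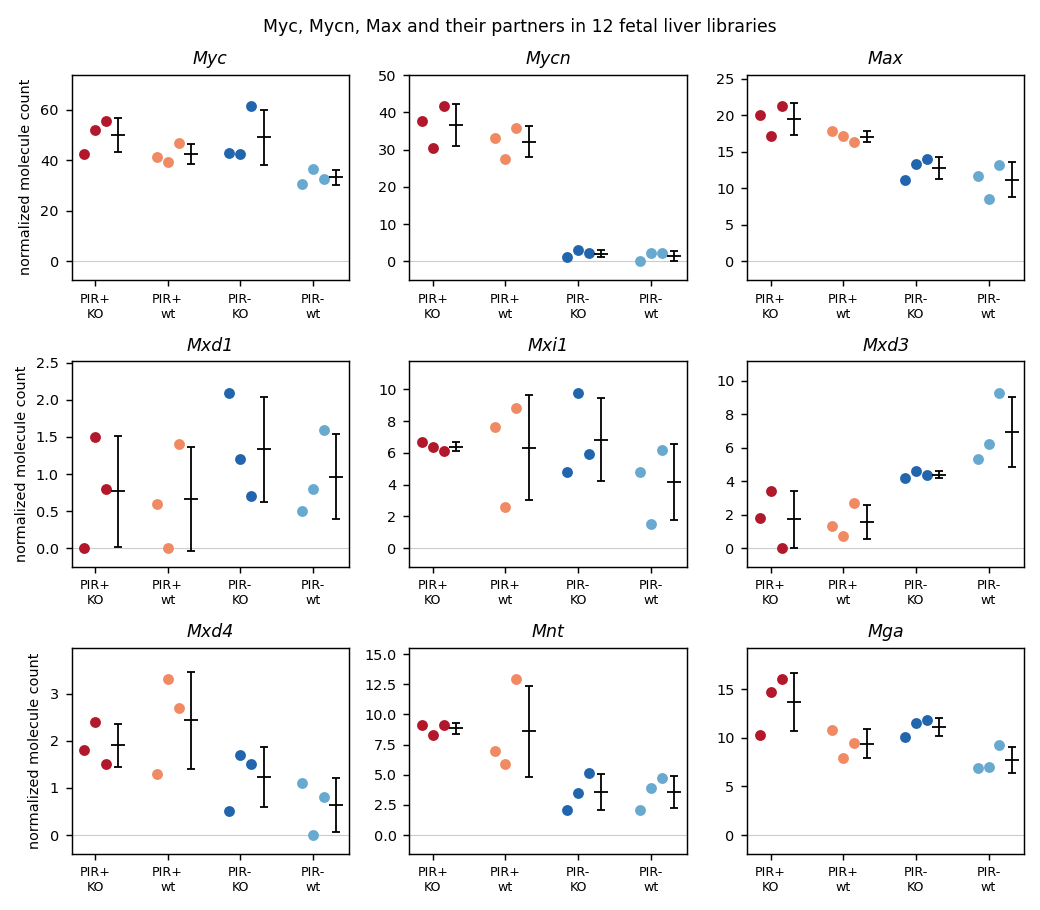
Normalized molecule counts (y axis, own scale in each panel) of the 9 members in 4 groups (x axis); each dot is 1 library, in replicate order from left to right, and the bar to the right of the dots is the mean ± SD of 3. Mycn sits at 27.6 to 41.8 in PIR+ and 0 to 2.9 in PIR- libraries, while Myc is 30.7 or higher in all 12.

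On the deposited scale, the combined supply of Myc and Mycn message was larger in PIR+ libraries. The median gene was also higher there, by 0.51 in wt and 0.39 in KO on the log2 scale. Summed, the pair gave 86.5 ± 9.39 in PIR+ KO, 74.7 ± 7.81 in PIR+ wt, 51.2 ± 11.1 in PIR- KO and 34.8 ± 4.0 in PIR- wt libraries (SD, n = 3 each). Mycn made up 42.3% ± 5.06 of that sum in PIR+ KO and 43.0% ± 1.71 in PIR+ wt libraries, against 4.10% ± 2.01 in PIR- KO and 4.18% ± 3.63 in PIR- wt libraries. By library the share was 36.9% to 47% in PIR+ and 0% to 6.59% in PIR-, with no overlap. Because the share is formed within a library, it does not move with library scaling. It compares libraries, and is no measure of the true proportion of the messages, since capture of each message at its 3′ end was not measured. The difference in log2(Mycn + 1) minus log2(Myc + 1) was 3.55 between the wt subsets and 3.61 between the KO subsets, PIR+ minus PIR-. The 6 repressor partners summed to 33.3 ± 3.50 in PIR+ KO, 29 ± 8.81 in PIR+ wt, 28.5 ± 4.32 in PIR- KO and 24 ± 6.87 in PIR- wt libraries, with overlap between all 4 groups. Relative to the library sum, Myc was 20.4 ± 3.15 per 100000 in PIR+ KO and 18.7 ± 1.44 in PIR+ wt libraries. It was 25.2 ± 2.49 in PIR- KO and 19.9 ± 2.59 in PIR- wt libraries. Myc and Mycn summed to 35.3 ± 2.34 per 100000 in PIR+ KO and 32.9 ± 3.47 in PIR+ wt libraries. In PIR- libraries that sum was 26.3 ± 2.24 in KO and 20.8 ± 2.83 in wt. On this measure the lowest PIR+ library had 29.6 and the highest PIR- library 28.7.

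**Figure D2:**
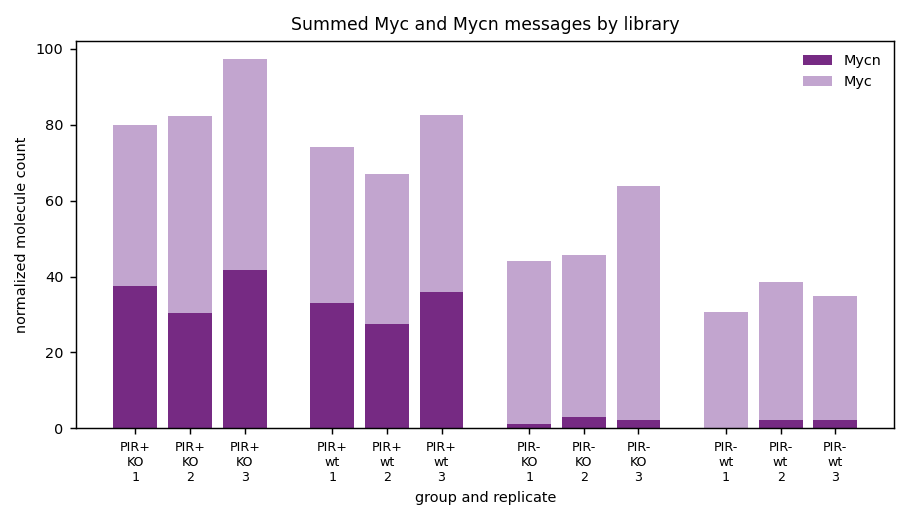
Stacked bars of the normalized molecule counts of Mycn (dark) and Myc (light) in each of the 12 libraries, by group and replicate. The sums run from 67.1 to 97.3 in PIR+ and from 30.7 to 63.9 in PIR- libraries, and Mycn is 36.9% to 47% of a bar in PIR+ but at most 6.59% in PIR-.

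Max (chromosome 12, 76937269 to 76962201, minus strand), the shared partner, was higher in PIR+ libraries by about as much as the median gene. It was 20, 17.1 and 21.3 in PIR+ KO and 17.8, 17.1 and 16.3 in PIR+ wt libraries. It was 11.1, 13.3 and 14 in PIR- KO and 11.7, 8.5 and 13.2 in PIR- wt libraries. All 6 PIR+ values lay above all 6 PIR- values, which was also so for 17.7% of the 4542 tested genes. The log2 fold change of Max between PIR+ and PIR- was 0.59 ± 0.27 in wt (SE, limma adjusted p = 0.0668) and 0.57 ± 0.27 in KO (adjusted p = 0.108), and 0.11 and 0.19 after scaling. Max was not called in either genotype. Without PIR- wt replicate 3 it passed in wt (0.72, adjusted p = 0.0447).

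Of the 6 repressor partners, only Mga reached a value of 10 in at least 3 libraries, the threshold for the main test. Mga (chromosome 2, 119897228 to 119969581, plus strand), a large protein that also belongs to a polycomb complex, was 10.3, 14.7 and 16 in PIR+ KO and 10.8, 7.9 and 9.5 in PIR+ wt libraries. It was 10.1, 11.5 and 11.8 in PIR- KO and 6.9, 7 and 9.3 in PIR- wt libraries. The subsets overlapped in both genotypes, and the log2 fold change was 0.25 ± 0.31 in each (SE, limma adjusted p = 0.492 in wt and 0.543 in KO). After scaling it was -0.21 and -0.12.

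Among the partners below that threshold, Mnt lay higher and Mxd3 lower in PIR+ libraries. They were tested with a lower threshold, a value of 3 in at least 3 libraries, which 8376 genes and 7 of the 9 members passed. Mxd3 (chromosome 13, 55325168 to 55329823, minus strand), an MXD protein known from dividing cells, was 1.8, 3.4 and 0 in PIR+ KO and 1.3, 0.7 and 2.7 in PIR+ wt libraries. In PIR- libraries it was 4.2, 4.6 and 4.4 in KO and 5.3, 6.2 and 9.3 in wt. All 6 PIR+ values lay below all 6 PIR- values, as for 1.80% of the 8376 genes. The estimated molecules number 0 to 7 per PIR+ library and 6 to 12 per PIR- library. Mxd3 passed the lower threshold through the PIR- libraries, since 1 PIR+ library reached a value of 3, so a difference between the subsets was built into its being tested.

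At that threshold the log2 fold change of Mxd3, PIR+ over PIR-, was -1.67 ± 0.45 in wt (SE, limma adjusted p = 0.00367), and 2.82% of genes were called lower. In KO it was -1.22 ± 0.45 and just missed the threshold (adjusted p = 0.0504), where 2.27% of genes were called lower. After scaling both passed, at -2.07 (adjusted p = 0.00091, with 7.38% of genes called lower) and -1.40 (adjusted p = 0.0356, with 4.87%). Without the 5 libraries rich in globin messages the wt value was -1.67 and did not pass (adjusted p = 0.123), nor did it in the 6 libraries with matching markers and title fields (adjusted p = 0.0999). Both of these sets keep the same wt libraries, with replicate 1 alone in PIR- wt. Without PIR+ KO replicate 3, where Mxd3 is listed at 0, the KO value was -0.62 (adjusted p = 0.450). The last 105 bases of Mxd3 overlap the end of Prelid1, which lies on the other strand and was 73.6 ± 8.35 in PIR+ KO, 67.9 ± 15.1 in PIR+ wt, 62.7 ± 1.10 in PIR- KO and 66.9 ± 5.33 in PIR- wt libraries. Whether the authors' counting used strand is not given, so some reads of the pair may be exchanged. The authors' deposited table gives a DESeq2 p-value of 0.00168 for Mxd3 between the wt subsets.

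Mnt (chromosome 11, 74830920 to 74845725, plus strand), the partner found in both resting and dividing cells, was 9.1, 8.3 and 9.1 in PIR+ KO and 7, 5.9 and 12.9 in PIR+ wt libraries. It was 2.1, 3.5 and 5.1 in PIR- KO and 2.1, 3.9 and 4.7 in PIR- wt libraries. All 6 PIR+ values lay above all 6 PIR- values, as for 13.1% of the 8376 genes. The log2 fold change at the lower threshold was 1.05 ± 0.38 in wt (SE, limma adjusted p = 0.0267) and 1.16 ± 0.38 in KO (adjusted p = 0.0229), where 28.3% and 15.2% of genes were called higher. After scaling it was 0.63 (adjusted p = 0.236) and 0.82 (adjusted p = 0.131), so the call holds on the deposited scale alone. It was also lost in wt without PIR+ wt replicate 3 (0.75, adjusted p = 0.209) or PIR- wt replicate 1 (0.79, adjusted p = 0.151), and in KO without PIR- KO replicate 1 (0.91, adjusted p = 0.155), PIR- KO replicate 2 (1.18, adjusted p = 0.0517), PIR+ KO replicate 1 (1.14, adjusted p = 0.0643) or PIR+ KO replicate 3 (1.14, adjusted p = 0.0768). Without the 5 globin-rich libraries Mnt did not pass in wt (1.26, adjusted p = 0.133) or in KO (0.89, adjusted p = 0.240).

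Mxi1 (chromosome 19, 53310518 to 53375810, plus strand), an MXD protein, was 6.7, 6.4 and 6.1 in PIR+ KO, 7.6, 2.6 and 8.8 in PIR+ wt, 4.8, 9.8 and 5.9 in PIR- KO and 4.8, 1.5 and 6.2 in PIR- wt libraries, with full overlap. At the lower threshold its log2 fold change was 0.51 ± 0.39 in wt (SE, limma adjusted p = 0.319) and -0.03 ± 0.39 in KO (adjusted p = 0.963). Mxd4 (chromosome 5, 34173883 to 34187720, minus strand), another MXD protein, was 1.8, 2.4 and 1.5 in PIR+ KO and 1.3, 3.3 and 2.7 in PIR+ wt libraries, against 0.5, 1.7 and 1.5 in PIR- KO and 1.1, 0 and 0.8 in PIR- wt libraries. Mxd1 (chromosome 6, 86647042 to 86669161, minus strand), a further MXD protein, ran from 0 to 1.5 in PIR+ and from 0.5 to 2.1 in PIR- libraries. Mxd4 was higher without overlap in PIR+ wt than in PIR- wt libraries, and overlapped between the KO subsets. The same separation in wt was seen for 47.6% of the 4542 genes in the main test, which Mxd4 did not enter. With no filter on low values, the log2 fold change of Mxd4 was 1.09 in wt (limma adjusted p = 0.0977) and 0.41 in KO (adjusted p = 0.612), and that of Mxd1 was -0.29 in wt (adjusted p = 0.687) and -0.46 in KO (adjusted p = 0.552). Neither was called, at 0 to 5 estimated molecules of each per library.

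**Figure D3:**
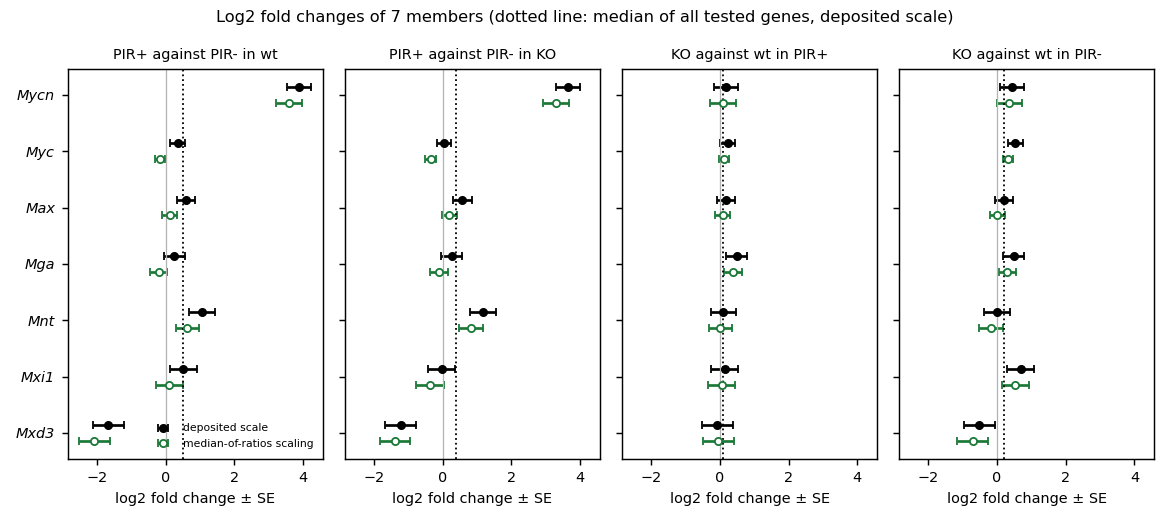
Log2 fold changes ± SE (x axis, the same range in each panel) of the 7 members that pass either threshold, in 4 comparisons; filled points are on the deposited scale, open points after median-of-ratios scaling, and the dotted line is the median of all tested genes. Mycn stands at 3.90 and 3.65 in the subset comparisons and Mxd3 at -1.67 and -1.22, while no member passed in the comparisons of KO with wt.

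In all, 1 of the 4 members in the main test was called between the subsets in each genotype, Mycn, where 44.4% of all tested genes were called in wt and 25.5% in KO. After scaling the same single member was called, against 22.6% and 15.6% of genes. With 1 of 4 the share is near these backgrounds, and the count is no result about the members.

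The subsets, which differ in Mycn, also differ in lineage messages. The summed level of 14 B-lineage markers was 43.1 to 63.7 in PIR+ KO and 46.7 to 81.3 in PIR+ wt libraries, against 858 to 1340.1 in PIR- KO and 989.1 to 1300.7 in PIR- wt libraries. Of these, Pax5 and Vpreb2 were listed at 0 in all 6 PIR+ libraries. The 10 stem and multipotent progenitor markers summed to 273.1 to 328.5 in PIR+ KO and 182.8 to 235.3 in PIR+ wt, against 49 to 52.9 in PIR- KO and 13.8 to 23.4 in PIR- wt libraries. Cd34 made up most of the PIR+ sums, with means of 182 in PIR+ KO and 152.9 in PIR+ wt. Its means were 19.8 in PIR- KO and 6.03 in PIR- wt libraries. Mecom went the other way, above 0 in the PIR- wt group and listed at 0 in the other groups. The 11 neutrophil and monocyte markers summed to 223.6 to 349 in PIR+ KO and 228.5 to 299.8 in PIR+ wt, against 51 to 81.2 in PIR- KO and 16.6 to 39.2 in PIR- wt libraries. Elane went the other way, listed at 0 in all 6 PIR+ libraries and above 0 in both PIR- groups. The 9 T, natural killer and innate lymphoid markers summed to 17.2 to 32.7 in PIR+ KO and 64.1 to 99.3 in PIR+ wt. They summed to 0.5 to 2.2 in PIR- KO and 0.5 to 2.4 in PIR- wt libraries. Cd3e, Bcl11b and Ncr1 were listed at 0 in all 12 libraries. Klrb1c went the other way in wt, listed at 0 in PIR+ and above 0 in PIR-. The 12 erythroid markers summed to 32.6 to 1818.6 in PIR+ KO and 30.5 to 894.9 in PIR+ wt, against 40.8 to 1366 in PIR- KO and 172.4 to 1605.2 in PIR- wt libraries. Some went the other way: Hbb-bh1 and Hba-x were listed at 0 in both PIR- groups, and Klf1 and Gata1 in PIR- wt. All 12 were above 0 in both PIR+ groups. The 4 erythroid markers tested are globin genes, and 4 were called lower in PIR+ than in PIR- wt libraries, or 3 after scaling. Of all tested genes 3.72% were called lower there, and 11.0% after scaling. Libraries overlapped, with Hba-a1 at 359.6 in PIR+ wt replicate 3 and 62.6 in PIR- wt replicate 1. Between the KO subsets 0 of the 4 were called. The part of these markers in the Mycn, Mnt and Mxd3 differences was not tested.

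No member was called between KO and wt. In PIR+ cells, Mycn was 36.6 ± 5.77 in KO and 32.2 ± 4.21 in wt libraries (SD, n = 3 each), a log2 fold change of 0.18 ± 0.35 (SE, limma adjusted p = 0.989). Myc was 49.9 ± 6.77 in PIR+ KO and 42.5 ± 3.82 in PIR+ wt libraries (0.22 ± 0.21, adjusted p = 0.948), Max was 19.5 ± 2.15 and 17.1 ± 0.75 (0.18 ± 0.27, adjusted p = 0.982), and Mga was 13.7 ± 2.99 and 9.40 ± 1.45 (0.48 ± 0.31, adjusted p = 0.898). In each of these the KO and wt libraries overlapped. Of all tested genes 0.903% were called in this comparison and 313 had an unadjusted p under 0.05, none of them a member. The authors' deposited table gives p-values between 0.298 and 0.969 for the 9 members in PIR+ cells.

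In PIR- cells, Myc was higher in KO libraries without overlap, but not beyond the test. It was 49.1 ± 10.9 in PIR- KO and 33.2 ± 2.90 in PIR- wt libraries (SD, n = 3 each), a log2 fold change of 0.53 ± 0.21 (SE, unadjusted p = 0.0137 and adjusted p = 0.230 by limma), where the median gene was 0.20 higher. Libraries were higher without overlap in 14.4% of tested genes in this comparison, and 1.30% were called. After scaling the value was 0.32 (adjusted p = 0.366), and without PIR- KO replicate 3, the library with 61.7, it was 0.36 (adjusted p = 0.751). Mga also lay higher in PIR- KO (11.1 ± 0.91) than in PIR- wt libraries (7.73 ± 1.36) with no overlap, by 0.48 ± 0.31 (SE, adjusted p = 0.481). Max was 12.8 ± 1.51 in PIR- KO and 11.1 ± 2.40 in PIR- wt libraries (0.20 ± 0.27, adjusted p = 0.786). Mycn was 2.07 ± 0.91 in PIR- KO and 1.53 ± 1.33 in PIR- wt libraries (0.42 ± 0.35, adjusted p = 0.599), at 0 to 5 molecules per library. Without the 5 globin-rich libraries PIR- wt is replicate 1 alone, where Mycn is listed at 0, and the value was 1.82 (adjusted p = 0.0407). Mxd3 was 4.40 ± 0.20 in PIR- KO and 6.93 ± 2.10 in PIR- wt libraries, a difference of -0.52 ± 0.45 at the lower threshold (SE, adjusted p = 0.697), where 0.597% of genes were called. The 10 stem and progenitor markers summed to 49 to 52.9 in PIR- KO and 13.8 to 23.4 in PIR- wt libraries, and the 12 erythroid markers to 40.8 to 1366 and 172.4 to 1605.2 in the same groups; their part in these values was not tested.

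No difference of the KO effect between the subsets was called for the 4 members. The interaction, KO effect in PIR+ minus KO effect in PIR-, was -0.31 ± 0.30 for Myc, -0.25 ± 0.49 for Mycn, -0.02 ± 0.39 for Max and 0.00 ± 0.44 for Mga (log2 ± SE, limma adjusted p from 0.982 to 1). Of all tested genes, 0.572% were called for the interaction and 250 had an unadjusted p under 0.05. After scaling the value of Max was 0.08 (adjusted p = 0.969).

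Genes that MYC proteins are known to raise had medians near that of all tested genes. Of 28 target genes of ribosome building 27 were tested, and 10 were higher and 0 lower in PIR+ than in PIR- wt cells, with a median log2 fold change of 0.41 beside 0.51 for all genes. Of all genes, 40.6% were called higher and 3.72% lower there. In KO 4 were higher and 0 lower, with a median of 0.37 beside 0.39, and 22.5% of all genes were higher and 2.97% lower. The largest of the 4 were Wdr12 (0.74), Ddx18 (0.68) and Dkc1 (0.56). After scaling 1 was higher and 3 lower in wt, where 11.5% and 11.0% of all genes were called. In KO 0 and 2 were, where 8.12% and 7.51% of all genes were called. The one that stayed higher was Wdr12, a factor of large ribosomal subunit assembly, at 26.0 ± 3.76 in PIR+ wt and 10.8 ± 3.05 in PIR- wt libraries (1.22 ± 0.26, SE, limma adjusted p = 7.91e-05; 0.74, adjusted p = 0.0138 after scaling). Without the 5 globin-rich libraries Wdr12 did not pass in wt (0.79, adjusted p = 0.145). Polr1a, the largest subunit of RNA polymerase I, was 15.5 ± 1.97 and 7.57 ± 1.07 in the same groups, and Rrp9, a processing factor of the small subunit, was 13.9 ± 5.46 and 6.87 ± 4.32; both passed on the deposited scale alone.

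Of 29 target genes of metabolism, chaperones, translation and the cell cycle 26 were tested. In PIR+ against PIR- wt cells 10 were higher and 0 lower (median 0.44), and in KO 3 were higher and 1 lower (median 0.30). After scaling the counts were 2 and 2 in wt, and 0 and 2 in KO. Ccnd2, which encodes a D-type cyclin, had the highest fold with 67 ± 14.6 in PIR+ wt and 10.4 ± 5.90 in PIR- wt libraries (SD, n = 3 each), a log2 fold change of 2.71 ± 0.27 (SE, limma adjusted p = 5.11e-15). In KO it was 26 ± 10.4 in PIR+ and 15.9 ± 3.27 in PIR- libraries (0.63 ± 0.27, adjusted p = 0.0686). Nme1, a nucleoside diphosphate kinase, was 100.1 ± 15.5 in PIR+ wt and 55.3 ± 14.1 in PIR- wt libraries, and Phb, prohibitin, was 56.0 ± 11.1 and 31.2 ± 6.61. In KO Apex1, Cdk4 and Eif4a1 were the 3 higher ones, by 0.53, 0.45 and 0.50, and none of them passed after scaling. The lower one was Tfrc, the transferrin receptor, at 15 ± 4.78 in PIR+ KO and 35.0 ± 5.40 in PIR- KO libraries (-1.20 ± 0.24, adjusted p = 5.08e-05). It did not pass in the 6 libraries with matching markers and title fields (-0.67, adjusted p = 0.127).

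Between KO and wt, 0 of the 27 ribosome targets were called in either subset. Of the 26 others, 0 rose and 2 fell in PIR+ KO cells, and 0 were called in PIR- cells. The medians were 0.20 and 0.13 for the ribosome and other targets in PIR+ cells, beside 0.09 for all genes, and 0.23 and 0.31 in PIR- cells, beside 0.20. Those that fell were Ccnd2, by 1.38 ± 0.27 on the log2 scale (SE, limma adjusted p = 0.000482), and Tfrc, by 0.88 ± 0.24 (adjusted p = 0.0467), while neither Myc nor Mycn was called there. After scaling Ptma, prothymosin alpha, was also lower in PIR+ KO (-0.22, adjusted p = 0.0492). Ccnd2 in PIR+ cells passed whichever library was left out, but did not pass with no filter on low values (adjusted p = 0.0614), in the 6 matching libraries (-0.62, adjusted p = 0.280) or without the 5 globin-rich libraries (-1.04, adjusted p = 0.0891). Tfrc in PIR+ cells was lost when any of 6 of the 12 libraries was left out (adjusted p up to 0.320). These were all 3 of PIR+ wt, PIR+ KO replicates 1 and 2, and PIR- KO replicate 2. It was also lost with the lower threshold (adjusted p = 0.0650), no filter (0.101) or embryonic day as a covariate (0.165). A pseudocount of 0.1 or 0.5 lost it too (adjusted p = 0.0689 and 0.0534). Its value was -0.37 in the 6 matching libraries and -0.74 without the 5 globin-rich libraries, sets with 1 PIR- wt library. Ccnd2 and Tfrc each have an interaction that passed in the main test. The sum of the T, natural killer and innate lymphoid markers above was also lower in PIR+ KO than in PIR+ wt libraries. Of the 9 markers 2 were tested, Id2 and Cd7, and both were called lower. Id2 was 20.1 ± 6.99 in PIR+ KO and 54.2 ± 17.6 in PIR+ wt, and Cd7 was 0.17 ± 0.29 and 18.5 ± 3.39. After scaling Id2 did not pass (limma adjusted p = 0.0635). Klrb1c went the other way, listed at 0 in PIR+ wt and above 0 in PIR+ KO. Of 12 tested B-lineage markers 2 were called lower in PIR+ KO, and of 5 tested stem markers 1, Cd48, was called higher. Of all tested genes 0.903% were called. The B-lineage markers were Cd79a, 0.33 ± 0.58 in PIR+ KO and 5.83 ± 3.10 in PIR+ wt, and Vpreb3, 0.40 ± 0.69 and 2.17 ± 1.97. Both are low in PIR+ cells and reached the threshold through the PIR- libraries. After scaling Vpreb3 and Cd48 did not pass (limma adjusted p = 0.134 and 0.0563). The part of these markers in the Ccnd2 and Tfrc differences was not tested. None of the 7 genes that MYC proteins are known to lower, such as Cdkn1a and Cdkn1b, reached the threshold.

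**Figure D4:**
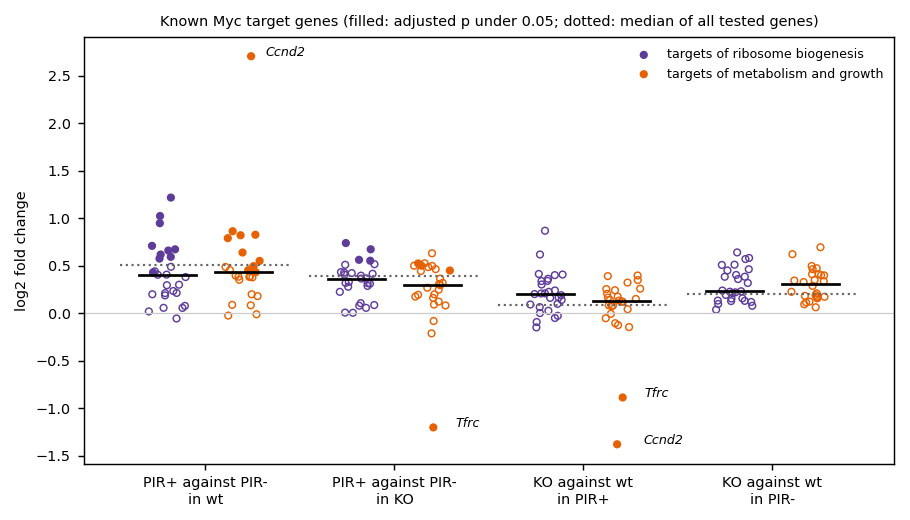
Log2 fold changes (y axis, deposited scale) of the 27 tested ribosome targets and the 26 other tested Myc targets in 4 comparisons; each circle is 1 gene, filled where the adjusted p is under 0.05, with the list's median as a bar and the median of all tested genes as a dotted line. In PIR+ against PIR- wt the list medians are 0.41 and 0.44 and the median gene is 0.51, and Ccnd2 lies apart at 2.71.

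The cofactors of the network are read against all tested genes, of which 40.6% were called higher between the wt subsets and 22.5% between the KO subsets; the shares called higher in the lists of coactivators, MYC stability, the SIN3 corepressor and the MGA complex do not exceed these. Their median log2 fold changes were 0.28, 0.27, 0.47 and 0.33 in wt beside 0.51 for all genes, and 0.28, 0.26, 0.24 and 0.49 in KO beside 0.39. Of 13 coactivators that MYC binds 9 were tested, and 3 were higher in PIR+ than in PIR- wt cells (Ep300, Ep400 and Ruvbl1) and 1 in KO (Ep300), with none after scaling. Ep300, a histone acetyltransferase, was 17.0 ± 8.11 in PIR+ KO, 17.7 ± 2.70 in PIR+ wt, 8.17 ± 1.30 in PIR- KO and 8.43 ± 2.79 in PIR- wt libraries. Without the 5 globin-rich libraries Ep300 did not pass in wt (1.001, adjusted p = 0.120) or in KO (0.65, adjusted p = 0.284). Of 13 genes that set the stability of MYC proteins 10 were tested, and 3 were higher in wt: Huwe1, Stub1 and Trpc4ap, all parts of ubiquitin ligases. Trpc4ap was also higher in KO. After scaling 0 of the 10 were higher and 3 lower in wt, where 11.5% and 11.0% of all genes were called. In KO 0 and 1 were, where 8.12% and 7.51% of all genes were called.

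The SIN3-HDAC corepressor, which MXD proteins and MNT recruit, had 10 of 14 genes tested. Hdac1, Rbbp7 and Suds3 were higher in PIR+ than in PIR- wt cells, and Rbbp7 in KO, by 0.54 to 0.86 on the log2 scale, and none of these passed after scaling, where 1 gene of the list was lower in KO. Of the 9 genes of the polycomb complex that holds MGA 5 were tested, and E2f6 and Rybp were higher in wt. Rybp, a subunit that stabilizes the complex, was the one that passed in both genotypes on both scales: it was 17.2 ± 3.54 in PIR+ KO and 6.03 ± 2.21 in PIR- KO libraries (1.40 ± 0.33, SE, limma adjusted p = 0.000653), and 12.7 ± 0.90 in PIR+ wt and 4.63 ± 2.00 in PIR- wt libraries (1.34 ± 0.33, adjusted p = 0.000769). It reached the threshold of 10 through the PIR+ libraries alone, so a difference between the subsets was built into its being tested. Rybp did not pass without the 5 globin-rich libraries in wt (0.75, adjusted p = 0.266) or in KO (1.02, adjusted p = 0.0676). After scaling the list had 1 higher and 1 lower gene in wt, the lower being Cbx3, a heterochromatin protein (-0.35, adjusted p = 0.00601), and 1 higher and 0 lower in KO. No gene of these 4 lists was called between KO and wt. Of 7 genes of the extended network 3 were tested, and 1 was called in 1 comparison, Mycbp2, an E3 ligase that binds MYC (0.75 ± 0.29 in KO, PIR+ over PIR-, adjusted p = 0.0462, and not after scaling or with the lower threshold, where the adjusted p was 0.0645).

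The genes nearest to each member in pattern were found by the root mean square difference of log2(value + 1) over the 12 libraries, after removing each gene's own mean. For Mycn they were Wfdc17, Spns2, Stc1, Lilrb3 and Crispld2, at distances of 0.51 to 0.60. All 5 were near absent from PIR- libraries: Stc1, the hormone stanniocalcin, was 17.4 ± 0.26 in PIR+ KO and 18.7 ± 4.66 in PIR+ wt and listed at 0 in PIR- libraries, and Lilrb3 encodes the receptor used for the sort. For Myc they included Mad2l1, Rpl21, Dus1l and Anapc1 (0.13 to 0.14). For Max they were Sub1, Mdh2, Npepps, Romo1 and Polr2l (0.10 to 0.12), and for Mga Pcf11, Lta4h, Son, Mrpl42 and Ndufa2 (0.14 to 0.18). The 12 libraries share their sorts and scaling, and this likeness is a description.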

How the data were processed

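The authors deposited 12 signal columns, 1 per library: molecule counts on a library-specific scale, given to 1 decimal. Per the labels' protocols, every tube of 100 cells received equal ERCC spike-in molecules, and the reverse transcription primer carried a molecular barcode. TopHat2, mm10 and DESeq2 are named in the submitters' processing notes; their versions, and how counting was done, are not given. The authors also deposited p-values (DESeq2, adjustment not stated). Whole counts are not claimed: 93.0% to 94.2% of values under 15 lie within 0.055 of a multiple of 1 step per library.

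limma 3.58.1 (R 4.3.3, trended prior, 4 group means) was run on log2(value + 1) for the 4542 genes that reached 10 in 3 or more libraries; a call is a p-value under 0.05 after Benjamini-Hochberg adjustment over all tested genes. The added 1 shrinks folds of low genes. The limma script was tested on simulated data after scaling, for KO against wt in PIR+ cells only. It was not tested on the deposited scale or for the other comparisons, so those calls are not checked by it. Members, gene lists and tests were chosen with earlier results of these data known. All members are named, and of each list up to 3 called genes per direction; nearest genes are 5 per tested member, of which 1 is not reported here. Locations are GENCODE M21 and promoters RefSeq, both GRCm38, the same build as mm10. Sequence motifs were searched with Python 3.11.15, figures drawn with matplotlib 3.10.9. Same-numbered replicates were not treated as pairs, since 1 of 18 correlations of their deviations was above 0.1. Alternatives were median-of-ratios scaling, other thresholds and pseudocounts, each library left out, the replicate number as a block, embryonic day as a covariate, and fits without globin-rich or mismatched libraries. The 5 globin-rich libraries are PIR+ wt 3, PIR- wt 2 and 3, PIR+ KO 1 and PIR- KO 1. All are among the 6 mismatched ones, with PIR+ KO 2 the other, so these fits are not separate checks. In wt both keep the same libraries.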

Additional observations from a re-analysis of the deposited data

Results flagged for a closer look

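The KO effect on Ccnd2, a D-type cyclin gene and known Myc target, differed between the subsets. The interaction, KO effect in PIR+ minus KO effect in PIR-, was -2.07 ± 0.38 (log2 ± SE, limma adjusted p = 0.000397). Ccnd2 was 26 ± 10.4 in PIR+ KO and 67 ± 14.6 in PIR+ wt libraries, against 15.9 ± 3.27 in PIR- KO and 10.4 ± 5.90 in PIR- wt libraries (SD, n = 3 each). After median-of-ratios scaling the value was -1.98 (adjusted p = 0.0113). It passed whichever library was left out (adjusted p up to 0.00793), but not with no filter on low values (adjusted p = 0.128), in the 6 libraries with matching markers and title fields (-0.72, adjusted p = 0.9996) or without the 5 globin-rich libraries (-1.14, adjusted p = 0.998).

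Tfrc, the transferrin receptor gene, differed in the same way, by -1.29 ± 0.34 (log2 ± SE, limma adjusted p = 0.0498). It was 15 ± 4.78 in PIR+ KO and 28.0 ± 4.35 in PIR+ wt libraries, against 35.0 ± 5.40 in PIR- KO and 26.1 ± 2.22 in PIR- wt libraries. After scaling the value was -1.17 (adjusted p = 0.0355). The Tfrc interaction is close to the threshold: it passed in 2 of the 12 fits that leave out 1 library, without PIR+ KO replicate 3 or PIR- KO replicate 2, and the adjusted p was up to 0.217 in the others. It did not pass with the lower threshold (adjusted p = 0.0912), no filter (0.186), a pseudocount of 0.1 (0.0737) or 0.5 (0.0592), embryonic day as a covariate (0.0506), the matching libraries (adjusted p = 0.9996) or without the globin-rich libraries (0.998).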

How the results depend on the processing

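Mycn was called between the subsets under every alternative run, with log2 fold changes of 3.32 to 5.27 in wt and 3.30 to 4.17 in KO. The number of members called between the wt subsets was 1 in the main test, 3 with the lower threshold (Mycn, Mnt and Mxd3), 2 with the lower threshold and scaling, an alternative chosen after seeing the data, 2 with no filter, 2 with the replicate block (Mycn, and Max at 0.59, adjusted p = 0.0326) and 1 to 2 when 1 library was left out. In KO it was 1, and 2 with the lower threshold on either scale. For KO against wt in PIR- cells it was 0, and 1 with the replicate block (Myc, adjusted p = 0.0494), which also moved the count of all called genes there to 209, beside 59. It was 1 in the 6 libraries with matching markers and title fields and 1 without the 5 globin-rich libraries (Mycn, 1.82 in both), each of which leaves 1 PIR- wt library, assumed to vary like the other groups and listed at 0 for Mycn. The shared replicate numbers are not a recorded pairing, so the block is given only as a check.

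The sign of values that were not called turned as follows. Median-of-ratios scaling turned Myc (-0.16 in wt and -0.36 in KO) and Mga (-0.21 and -0.12) between the subsets. Leaving out 1 library moved Myc between the KO subsets over -0.052 to 0.21, Mycn for KO against wt in PIR- cells over -0.15 to 0.71, and Mxi1 between the KO subsets up to 0.23. Mxi1 between the wt subsets was -0.060 both in the matching libraries and without the globin-rich ones. The Mycn and Myc balance between the wt subsets, 3.55, was 4.58 in both of those sets. Counts of all called genes also changed by over 1.5 times: 1025 in wt and 710 in KO after scaling, beside 2015 and 1158, 648 and 511 without the globin-rich libraries, and 958 and 748 in the matching libraries. Leaving out 1 library moved them to 1288 in wt (without PIR+ wt replicate 3) and to 633 and 719 in KO (without PIR+ KO replicate 3 or PIR- KO replicate 1). For KO against wt the count was 27 in PIR+ cells, beside 41 (without PIR+ wt replicate 1), 37 and 33 in PIR- cells, beside 59 (without PIR- KO replicate 2 or 3), and 15 for the interaction, beside 26 (without PIR+ wt replicate 2). Over these left-out libraries the genes called higher between the wt and KO subsets numbered 4 to 10 and 0 to 6 among the ribosome targets, 6 to 14 and 0 to 6 among the other targets, 0 to 4 and 1 to 2 among the coactivators, 1 to 4 and 0 to 2 among the stability genes, 2 to 5 and 0 to 2 among the SIN3 genes, 1 to 2 and 1 to 2 in the MGA complex, and 0 to 1 in both for the extended network. With no filter on low values, the count of all called genes was 3 for the interaction and 31 for KO against wt in PIR- cells. With the replicate block it was 62 for KO against wt in PIR+ cells. Without the globin-rich libraries the counts for KO against wt in both subsets and for the interaction fell by over 1.5 times. In the matching libraries those for PIR+ cells and the interaction did so too. The cause of these changes was not tested. Estimated molecules are few for Mxd1, Mxd3 and Mxd4.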

Other observations

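A further Myc family gene, Mycl1, is not among the 9 and was picked after its values were seen. It was 0, 1.0 and 1.5 in PIR+ KO and 3.8, 2.0 and 4.7 in PIR+ wt libraries, against 1.1, 1.2 and 0 in PIR- KO and 0.5, 0 and 0 in PIR- wt libraries. With no filter on low values the log2 fold change between the wt subsets, PIR+ over PIR-, was 1.92 ± 0.44 (SE, limma adjusted p = 0.00444), and for KO against wt in PIR+ cells it was -1.35 ± 0.44 (adjusted p = 0.320). The authors' deposited table gives p-values of 0.0548 and 0.0483 for these comparisons.

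In the branch of the network that pairs with MLX instead of MAX, Mlx was 10.5 ± 5.05 in PIR+ KO, 9.20 ± 0.89 in PIR+ wt, 5.83 ± 0.60 in PIR- KO and 5.10 ± 1.28 in PIR- wt libraries (SD, n = 3 each). Mlxip was 11.2 ± 2.12, 9.60 ± 2.62, 9.07 ± 2.31 and 9.63 ± 1.82 in the same order. Mlxipl, the glucose-responsive member known from liver cells, was listed at 0 in all 12 libraries.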
